A study of Saccharomyces cerevisiae with 14 samples.

Results

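The deletions bna1Δ and tna1Δ were pooled and set against wild type, to ask which changes of transcript level the loss of de novo NAD+ synthesis and the loss of nicotinic acid uptake share in rich medium. Of the 14 arrays of the series, 8 entered the comparison: 2 of bna1Δ, 2 of tna1Δ and 4 of wild type without nicotinamide, all chosen by their labels. The other 6 arrays, of npt1Δ, pnc1Δ and wild type with 5 mM nicotinamide (2 each), share the fit and served for a few direct comparisons. Each array held total RNA of 1 culture of Saccharomyces cerevisiae in YPD, a rich medium, harvested in log phase and hybridised to an Affymetrix Yeast 2.0 array. The values are log2 signals computed by the authors with GCRMA.

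The bna1Δ strain carries bna1D::kanMX4 and the tna1Δ strain tna1D::kanMX4, each a replacement of the reading frame by a drug resistance cassette. Both share with the wild type the MATa mating type and the marker alleles his3D200, leu2D1, met15D0, trp1D63 and ura3-167. The wild-type arrays come as 2 pairs coded ML1 and ML8, with no label that ties a pair to a strain or tells whether the pairs differ in strain or day. The arrays of a pair are duplicate cultures of a strain, and no second isolate of either deletion was analysed here. The main fit pooled the ML1 and ML8 arrays. Its p-values therefore measure the spread between duplicate cultures together with any difference between the wild-type pairs.

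Yeast makes NAD+ de novo from tryptophan through the enzymes of the BNA genes, of which BNA1 encodes 3-hydroxyanthranilate dioxygenase. It also salvages NAD+ from nicotinic acid, which the permease Tna1 takes up and the phosphoribosyltransferase Npt1 converts, and from nicotinamide, which the nicotinamidase Pnc1 turns into nicotinic acid. The sirtuin deacetylases consume NAD+. Sir2 silences the mating-type loci, chromosome ends and ribosomal DNA, while Hst1 acts with the DNA-binding repressor Sum1 on BNA genes and on genes of middle sporulation.

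The arrays were alike in overall signal, with a median of 9.75 to 9.84 (log2) over all 14, and at least 97.5% of the S. cerevisiae signals of each array were above background. The background limit of an array is the 95th percentile of probe sets without a gene in the S. cerevisiae reference (2.22 to 2.26). Duplicates correlated at 0.9978 in bna1Δ, 0.9973 in tna1Δ, 0.9923 in the ML1 pair and 0.9968 in the ML8 pair. ML1 array A stood apart, with 161 probe sets over 1 (log2) away from the remaining wild-type mean, while the same count was 12, 74 and 13 for the other 3. The larger differences that lean on this array are followed by their values without it or by its reading. A signal is an average over a culture, so fewer cells with a transcript and less RNA per cell cannot be told apart. HIS3 and MET17, the gene of the met15 allele, lay below background on all 8 arrays, near 1.92 and 1.98. LEU2 read 14.05 to 14.30 on the 8 arrays, although every strain carries leu2D1. URA3 read 11.9 to 12.3 on them, and the label of its allele, ura3-167, lacks the D of the other marker labels.

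Each strain lacked the transcript of its own deleted gene. BNA1 read 1.98 and 1.89 in bna1Δ, both below background, against 9.47 and 9.45 in the ML1 pair and 9.99 and 9.59 in the ML8 pair. That makes BNA1 at least 166-fold lower in bna1Δ, measured against the background limit. In tna1Δ it read 9.70 and 9.54, inside the wild-type range. TNA1 read 2.09 and 2.28 in tna1Δ, against 12.26 and 12.54 in the ML1 pair and 12.56 and 12.61 in the ML8 pair. The array B of tna1Δ lay just above its background limit of 2.25. In bna1Δ the permease gene read 12.67 and 12.60, which overlaps wild type for the second array and exceeds it for the first. The measured neighbours did not pass the test, with pooled differences of 0.15 for MDE1 beside BNA1 and of 0.04 for RAD2 and 0.02 for APL6 beside TNA1 (log2).

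No transcript other than those of the 2 deleted genes passed the test of the pooled deletions against wild type. For each of 5498 probe sets the mean of both strains was compared with the mean of the 4 wild-type arrays by limma, and a probe set was called at a Benjamini-Hochberg adjusted p under 0.05. The test called 2, which is 0.0364% of those tested, and both were lower in the deletions: TNA1 (-5.08 ± 0.08 log2, SE, adjusted p = 1.05e-10) and BNA1 (-3.85 ± 0.12, adjusted p = 6.02e-08). Each of these pooled values averages a strain without the gene and a strain at the wild-type level, so neither is shared. The count of probe sets that were both called and without overlap between the 4 deletion and 4 wild-type arrays was therefore 0. Against the same wild-type arrays, each strain on its own gave 1 call (0.0182%), its deleted gene. At an unadjusted p under 0.05, 126 probe sets passed (2.29%), 57 higher and 69 lower in the deletions. This share is below the 0.05 that such a threshold passes when no probe set differs, so the count is no surplus of small shifts. Of 34 gene lists covering metabolism, silencing, mating, sporulation and stress, 32 had no called member, and the other 2 are the lists that hold BNA1 or TNA1.

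The size of what could have gone unseen is given by the intervals. Over the other 5496 probe sets the pooled difference had a median of 0.00, and its central 95% of values ran from -0.20 to 0.24 (log2). The median SE was 0.087, which gives a 95% interval of ± 0.193 for a probe set at the median. This interval, not adjusted for the number of probe sets, lay within a 1.5-fold change in either direction for 91.1% of them and within 2-fold for 98.4%. The estimates exceeded 1.5-fold in 6 probe sets and 2-fold in 0. In 5 of those 6 (CPD1, FBP1, HEM3, SLZ1 and SWT21) ML1 array A was the lowest or the highest of the 8 arrays. Without that array the difference was -0.13 for CPD1, 0.04 for HEM3, -0.03 for SLZ1, -0.01 for SWT21 and 0.46 for FBP1. For SLZ1, a meiotic gene, that array read 5.36, while the other 7 lay between 1.96 and 2.08. The remaining one was YER134C, described below with the genes that separate the wild-type pairs.

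**Figure D1:**
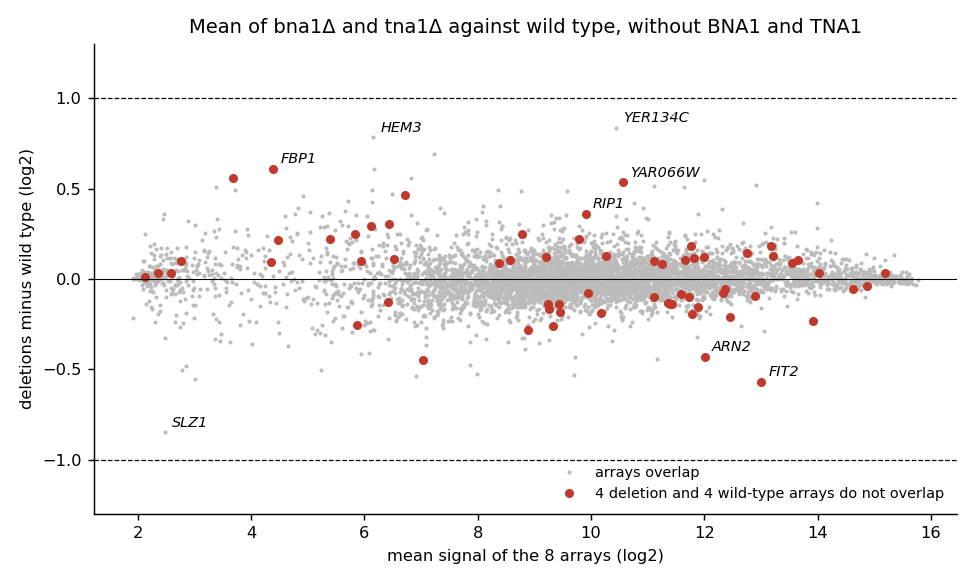
Pooled difference of bna1Δ and tna1Δ minus wild type (log2) against the mean signal of the 8 arrays (log2), 1 point per probe set, with BNA1 and TNA1 left out and dashed lines at a 2-fold change. Red points are probe sets whose 4 deletion and 4 wild-type arrays do not overlap, and all points lie between -0.85 (SLZ1) and 0.84 (YER134C).

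Without overlap between the 4 deletion and the 4 wild-type arrays were 64 probe sets (1.16%), of which 36 (0.655%) were higher and 28 (0.509%) lower in the deletions. Random regrouping of 4 against 4 arrays separates a probe set completely with a probability of 0.0286. The share of 1.16% is below that, so these 64 probe sets are no surplus over chance. Among those with the higher signal in the deletions was FBP1, which encodes the gluconeogenic enzyme fructose-1,6-bisphosphatase. FBP1 read 4.97 and 4.53 in bna1Δ and 4.84 and 4.43 in tna1Δ, against 3.64 and 4.20 in the ML1 pair and 4.28 and 4.21 in the ML8 pair. The gap to the nearest wild-type array was small, and ML1 array A was the lowest. Its difference of 0.61 ± 0.15 did not pass the test, and without that array it was 0.46 ± 0.11. RAD10, which encodes a subunit of the excision repair nuclease, had 0.31 ± 0.07 (adjusted p = 0.683 in limma). AHP1, which encodes a thioredoxin peroxidase, read 13.76 and 13.77 in bna1Δ and 13.82 and 13.84 in tna1Δ, against 13.95 and 13.93 in ML1 and 14.14 and 14.11 in ML8. Its arrays did not overlap, while its difference of -0.23 ± 0.06 did not pass the test over all probe sets.

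Among genes of NAD+ metabolism, those of the remaining de novo steps read close to wild type in both strains. BNA2, which encodes the tryptophan dioxygenase of the first step, read 5.48 and 5.30 in bna1Δ and 5.65 and 5.34 in tna1Δ, against 5.21 and 5.25 in the ML1 pair and 5.38 and 5.56 in the ML8 pair. The groups overlapped, and the pooled difference was 0.09 ± 0.11 (95% interval -0.14 to 0.33). Both kynurenine enzymes were near wild type, with 0.04 ± 0.07 for the monooxygenase gene BNA4 and -0.06 ± 0.07 for the kynureninase gene BNA5. BNA6, whose quinolinate phosphoribosyltransferase uses the product of the Bna1 step, had a difference of 0.00 ± 0.07 (95% interval -0.14 to 0.15). BNA3 had 0.07 and BNA7 -0.01. Of the 7 de novo genes BNA1 alone was called, and the 6 others had a median of 0.02 and a range of -0.06 to 0.09, beside a median of 0.00 over all probe sets.

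The salvage and uptake genes also overlapped with wild type. NPT1 read 12.44 and 12.53 in bna1Δ and 12.33 and 12.33 in tna1Δ, against 12.54 and 12.34 in the ML1 pair and 12.36 and 12.34 in the ML8 pair, a difference of 0.01 ± 0.05. For PNC1 the arrays read 11.93 and 12.11 in bna1Δ and 12.01 and 11.88 in tna1Δ, against 11.67 and 12.22 in ML1 and 12.01 and 11.90 in ML8. That difference was 0.04 ± 0.13, less than the spread inside the ML1 pair. NRT1 encodes the transporter of nicotinamide riboside. Its signal was 7.92 and 7.84 in bna1Δ and 8.20 and 8.33 in tna1Δ, against 7.86 and 8.10 in ML1 and 8.09 and 8.10 in ML8. The bna1Δ arrays overlapped wild type and the tna1Δ arrays lay above it. The differences from wild type were -0.16 for bna1Δ and 0.23 for tna1Δ, neither called, and 0.04 ± 0.07 for both together. Late steps showed 0.14 ± 0.13 for the adenylyltransferase gene NMA1, 0.10 ± 0.06 for POF1 and 0.02 ± 0.06 for the NAD+ synthetase gene QNS1. The nicotinamide riboside kinase gene NRK1 had -0.08 ± 0.13. Without TNA1, 0 of 18 genes of salvage, late synthesis and vitamin uptake were called, with a median of 0.03 and a range of -0.30 to 0.14.

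**Figure D2:**
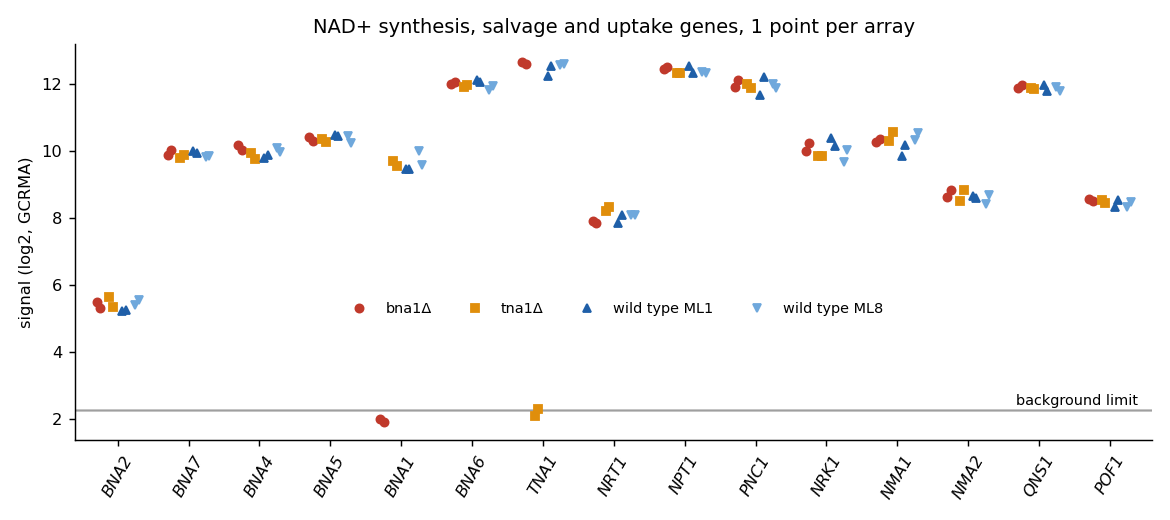
Signal (log2, GCRMA) of 15 genes of NAD+ synthesis, salvage and uptake in bna1Δ, tna1Δ and both pairs of wild type, 1 point per array, with the background limit as a line. BNA1 in bna1Δ lies below the limit and TNA1 in tna1Δ close to it. For no gene do the points of both deletions together lie wholly above or below wild type, although those of tna1Δ lie above it for NRT1.

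Several of these genes separated the pooled deletions from npt1Δ, which lacks the salvage enzyme used by both nicotinic acid and nicotinamide. In that direct comparison, which uses no wild-type array, 25 probe sets (0.455%) were higher and 201 (3.66%) lower in the deletions. BNA2, with the deletion values given above, read 11.35 and 11.40 in npt1Δ, a log2 difference of -5.93 ± 0.13 (deletions minus npt1Δ, adjusted p = 2.95e-10). The differences were -2.78 for BNA4, -1.97 for BNA5, -0.69 for BNA6 and -1.95 for NRT1, all called by limma. The deletions also differed from wild type with nicotinamide, with -5.88 for BNA2 and -3.15 for BNA4, where 377 probe sets (6.86%) were higher and 484 (8.8%) lower in the deletions. BNA1 itself read 9.70 and 9.54 in tna1Δ, against 12.95 and 12.79 in npt1Δ and 12.85 and 12.55 in wild type with nicotinamide.

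Sirtuin genes and their silencing partners gave 0 calls of 12, with a median of -0.01. The members of highest signal were NET1, which encodes the nucleolar anchor of Sir2 (-0.05 ± 0.08), and HST1 (-0.02 ± 0.08). SUM1 had -0.17 ± 0.09 and SIR2 -0.20 ± 0.37, an error widened by a split among the wild-type arrays that is described below. Middle sporulation genes are the known targets of Hst1 and Sum1, and 0 of 41 were called, with a median of 0.00 and a range of -0.35 to 0.17. At an unadjusted p under 0.05 the count was 0 of 41, and 2.29% of all probe sets passed. CDA1, which encodes a chitin deacetylase of the spore wall, read 2.27 and 2.34 in bna1Δ and 2.25 and 2.27 in tna1Δ, against 2.24 and 2.29 in the ML1 pair and 2.24 and 2.30 in the ML8 pair. Every one of those values lay just above the background limit of its array. The septin gene SPR3 had 0.12 ± 0.15, and the sporulation kinase gene SMK1 had -0.31 ± 0.15, with -0.04 in bna1Δ and -0.58 in tna1Δ. The wild-type mean of SMK1 includes ML1 array A at 5.75, while the other wild-type arrays read 5.34 to 5.40.

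Set directly against npt1Δ, 26 of these 41 sporulation genes were lower in the deletions (3.66% over all probe sets), with a median of -1.49. CDA1, close to the limit in the deletions, differed by -6.40 ± 0.10 and SPR3 by -3.86 ± 0.18. Against wild type with nicotinamide, 34 of 41 were lower (8.8% over all), with a median of -1.92, and against pnc1Δ the count was 0 of 41 (1.22% over all). These 3 comparisons share the 4 deletion arrays and are therefore not independent of each other.

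**Figure D3:**
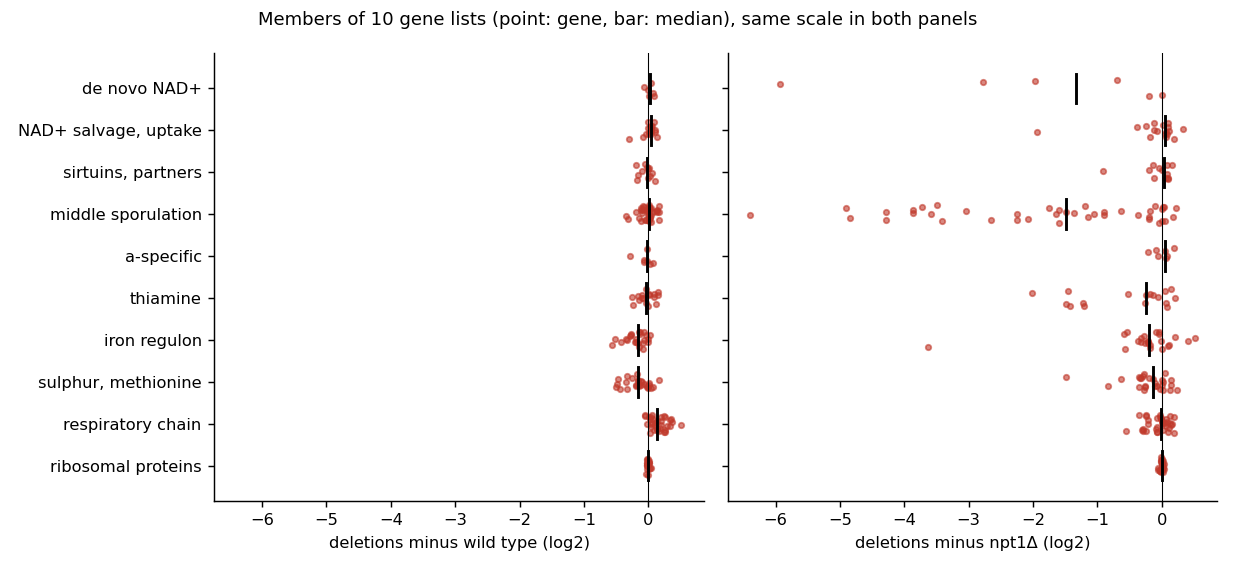
Log2 difference of the members of 10 gene lists, deletions minus wild type on the left and deletions minus npt1Δ on the right, on 1 scale, with BNA1, TNA1 and NPT1 left out (point, gene; bar, median). Middle sporulation genes centre on 0.00 against wild type and on -1.49 against npt1Δ, and the iron regulon list centres on -0.15 against wild type.

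Mating-type expression was that of a MATa strain in both deletions and in wild type. Of 7 a-specific genes 0 were called, with a median of -0.03. The pheromone receptor gene STE2 read 14.63 and 14.70 in bna1Δ and 14.62 and 14.66 in tna1Δ, against 14.66 and 14.65 in ML1 and 14.56 and 14.59 in ML8. The SE of these 7 genes was 0.28 to 0.48, well above the median of 0.087, and the nicotinamide cultures in the same fit differed widely from each other (STE2 at 11.72 and 9.26). With only the 8 arrays in the fit the SE of STE2 was 0.044 and the difference stayed at 0.03. Direct comparison with those nicotinamide cultures placed 7 of 7 higher in the deletions (6.86% over all probe sets), with a median of 5.03. STE3, the receptor gene of the other mating type, read 2.46 to 2.59 in the deletions and 2.46 to 3.35 in wild type, close to background, and 7.66 and 7.58 in npt1Δ.

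Genes of the iron regulon, which the factor Aft1 activates when iron is scarce, read slightly lower in the deletions throughout most of the list. The pooled difference was negative in 22 of 24 members, with a median of -0.15 beside 0.00 over all probe sets, and ranged from -0.57 to 0.03. None was called at an adjusted p under 0.05, and 10 of 24 had an unadjusted p under 0.05, all on the negative side (1.26% of all probe sets). In 5 of 24 (FIT2, ARN1, ARN2, FRE6 and COT1) every deletion array lay below every wild-type array, beside 0.509% of all probe sets. The mean signal of the 24 genes was 10.17 and 10.19 in bna1Δ and 10.33 and 10.28 in tna1Δ, against 10.39 and 10.43 in the ML1 pair and 10.43 and 10.50 in the ML8 pair. The groups did not overlap on this mean. The gap between the nearest arrays, tna1Δ array A and ML1 array A, was smaller than that between the means of the strains. Among the 34 lists the iron regulon alone separated in this way. Random regrouping of the arrays separates a list with a probability of 0.0286. Over 34 lists such a separation can arise by chance, so it is no evidence of a shift by itself. Negative differences also prevailed in other lists, with 11 of 12 zinc and copper genes (median -0.10) and 27 of 34 ribosome biogenesis genes (median -0.04). Neither of those lists had a member with an unadjusted p under 0.05 in limma. The respiratory list described below leaned the other way.

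ARN2, which encodes a transporter of iron-siderophore chelates, came nearest to a call. It read 11.77 and 11.77 in bna1Δ and 11.86 and 11.79 in tna1Δ, against 12.16 and 12.13 in the ML1 pair and 12.34 and 12.29 in the ML8 pair. The deletion arrays lay close together and all below wild type. The difference was -0.43 ± 0.06 (95% interval -0.57 to -0.29, a 1.35-fold lower level), with an adjusted p of 0.0748 in limma, the smallest after the deleted genes. With the wild-type pairs as separate groups in the fit it was called (adjusted p = 0.0248), as it was under 3 other alternatives, and over all 23 alternatives the adjusted p ran from 0.0203 to 0.79. FIT2, which encodes a cell wall mannoprotein that retains siderophore iron, read 12.74 and 12.72 in bna1Δ and 12.95 and 12.45 in tna1Δ, against 13.13 and 13.13 in ML1 and 13.38 and 13.50 in ML8. Its difference of -0.57 ± 0.13 had an adjusted p of 0.683. FIT1, of the same family, had -0.52 ± 0.21, and its deletion arrays overlapped the ML1 pair (7.73 and 7.95) but not the ML8 pair (8.60 and 8.74).

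Smaller values were found for ARN1, another siderophore transporter gene (-0.21 ± 0.08), for FRE6, a vacuolar metalloreductase gene (-0.14 ± 0.05), and for the vacuolar metal transporter gene COT1 (-0.14 ± 0.05). In the high-affinity uptake complex the multicopper oxidase gene FET3 had -0.07 ± 0.12 and its permease partner FTR1 0.00 ± 0.09. The list median was -0.20 for bna1Δ alone, negative in 24 of 24, and -0.12 for tna1Δ alone, negative in 19 of 24. Both values use the same wild-type arrays. Leaving out each of the 8 arrays in turn gave medians between -0.17 and -0.13, the weaker end without ML1 array A. Set against wild type with nicotinamide, 13 of 24 were lower in the deletions (8.8% over all), with ARN2 at -1.07, and against pnc1Δ 1 of 24 was called, ARN2, higher in the deletions by 0.45 ± 0.08 (1.67% over all). Against npt1Δ 1 of 24 was called lower in the deletions (3.66% over all). The list median was -0.44 against nicotinamide, -0.20 against npt1Δ and 0.08 against pnc1Δ. By that median the list was no lower in the deletions than in pnc1Δ.

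**Figure D4:**
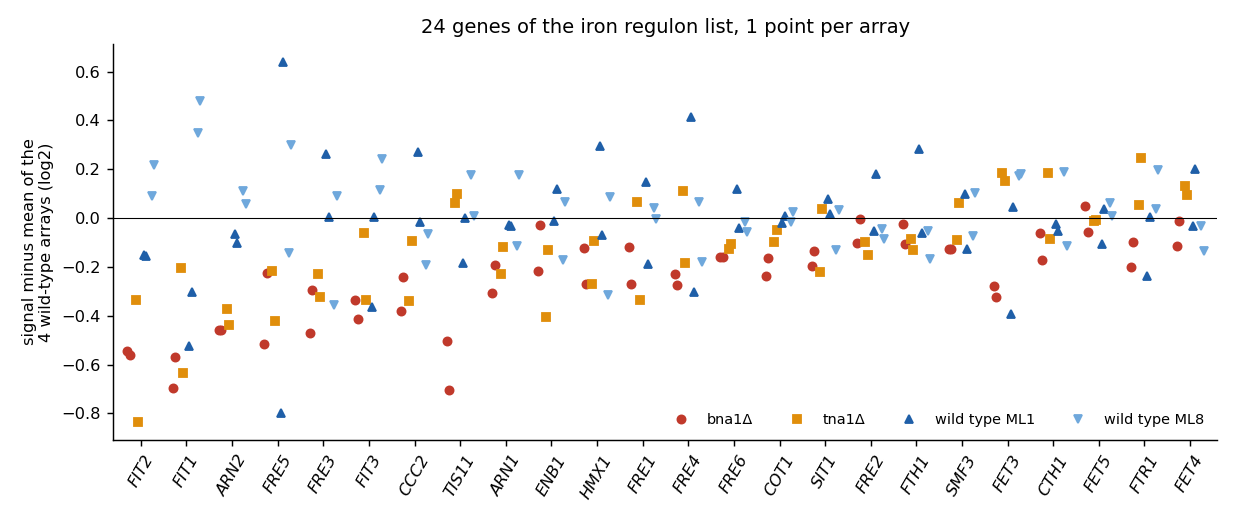
Signal of the 24 genes of the iron regulon list minus the mean of the 4 wild-type arrays (log2), 1 point per array for bna1Δ, tna1Δ and both pairs of wild type, ordered by the pooled difference. Deletion points lie mostly below 0 and do not overlap wild type for FIT2, ARN2, ARN1, FRE6 and COT1, while TIS11 and FET3 read lower in bna1Δ than in tna1Δ.

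Genes of sulphur assimilation and methionine synthesis had mostly negative differences, larger in bna1Δ. The pooled difference was negative in 22 of 27 members (median -0.16), 8 of 27 had an unadjusted p under 0.05 on the negative side (1.26% of all probe sets), and 0 were called or free of overlap. The median was -0.27 for bna1Δ, with 25 of 27 negative, and -0.02 for tna1Δ, with 14 of 27 negative, and no test of that difference in the list was made. SUL2, which encodes a sulphate permease, read 7.23 and 7.33 in bna1Δ and 8.20 and 7.76 in tna1Δ, against 8.04 and 7.88 in ML1 and 8.38 and 8.12 in ML8. Both bna1Δ arrays and array B of tna1Δ lay below wild type. The differences from wild type were -0.82 for bna1Δ and -0.13 for tna1Δ, and that between the strains was not called. MET16, which encodes the reductase of phosphoadenylyl sulphate, read 9.44 and 9.34 in bna1Δ and 9.83 and 9.38 in tna1Δ, against 10.07 and 9.73 in ML1 and 10.06 and 9.87 in ML8. Array A of tna1Δ overlapped wild type, and the pooled difference was -0.43 ± 0.11.

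Respiratory chain and ATP synthase genes lay on the other side, with a positive difference in 32 of 35 members and a median of 0.14. None was called, 5 of 35 had an unadjusted p under 0.05 (1.04% of all probe sets, positive side), and for CYC1, RIP1 and SDH3 every deletion array lay above every wild-type array (0.655% over all). The mean of the 35 genes was 11.14 and 11.10 in bna1Δ and 11.25 and 11.14 in tna1Δ, against 10.70 and 11.07 in the ML1 pair and 11.12 and 11.10 in the ML8 pair. The groups overlapped on this mean, and ML1 array A lay below all others. Without that array the median was 0.06, positive in 29 of 35, and against the ML8 pair alone it was 0.04. RIP1, which encodes the Rieske iron-sulphur protein, read 9.98 and 10.06 in bna1Δ and 10.13 and 10.18 in tna1Δ, against 9.17 and 9.95 in ML1 and 9.89 and 9.89 in ML8. Its difference was 0.36 ± 0.15, and 0.18 ± 0.05 without ML1 array A. The cytochrome c gene CYC1 read 9.01 and 8.91 in bna1Δ and 8.90 and 8.81 in tna1Δ, against 8.75 and 8.69 in ML1 and 8.64 and 8.57 in ML8. The difference of 0.25 ± 0.06 for CYC1 did not rest on ML1 array A, which was the highest wild-type array, and it did not pass the test (adjusted p = 0.683).

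The strains differed from each other in a few genes in which the wild-type pairs differed too. With the wild-type arrays as 1 group, bna1Δ against tna1Δ gave 2 calls (0.0364%), BNA1 and TNA1. With ML1 and ML8 as separate groups it gave 5 (0.0909%), adding SIR2, PRP11 and YFR057W. SIR2 read 10.45 and 10.21 in bna1Δ and 8.67 and 8.21 in tna1Δ, a difference of 1.89 ± 0.19 (bna1Δ minus tna1Δ, adjusted p = 0.00408 in limma). It read 8.96 and 8.65 in the ML1 pair and 10.35 and 10.36 in the ML8 pair, so that tna1Δ lay near ML1 and bna1Δ near ML8. PRP11, a splicing factor gene, lies next to SIR2 on chromosome IV. It read 8.46 and 8.40 in bna1Δ and 7.68 and 7.53 in tna1Δ, beside 7.77 and 7.54 in ML1 and 8.38 and 8.38 in ML8.

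YFR057W, of unknown function and the outermost protein-coding gene at the right end of chromosome VI in the reference, divided the strains the other way. It read 2.15 and 2.25 in bna1Δ, both below background, and 6.64 and 6.54 in tna1Δ, which is at least 20.2-fold lower in bna1Δ. The wild-type pairs read 6.94 and 6.58 in ML1 and 2.20 and 2.15 in ML8, at least 22.8-fold lower in ML8. The other groups were all high, with 6.19 and 6.14 in npt1Δ, 6.43 and 6.54 in pnc1Δ and 7.29 and 7.29 in wild type with nicotinamide. For the pooled comparison these opposite values cancel, and YFR057W had -0.07 ± 1.03. Against the ML1 pair alone its difference was -2.36 and against the ML8 pair alone 2.22, both called. The labels give no strain, day or batch difference between the pairs, and strain, day and pair cannot be told apart in these files.

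Another gene also separated the wild-type pairs, and a gene near it on the chromosome had a large pooled estimate. ML1 minus ML8 gave 4 calls in all (0.0728%), the genes above and YER137C, of unknown function. YER137C read 9.11 and 8.96 in bna1Δ and 9.07 and 8.88 in tna1Δ, against 9.45 and 8.94 in ML1 and 7.82 and 7.85 in ML8, so the deletions lay at the ML1 level. YER134C, a phosphatase gene with 2 genes between it and YER137C on chromosome V, read 10.59 and 10.72 in bna1Δ and 10.87 and 11.24 in tna1Δ, against 9.94 and 10.61 in ML1 and 9.81 and 9.72 in ML8. ML1 array B overlapped the deletions, and the difference of 0.84 ± 0.18 was not called (adjusted p = 0.683). Without that array it was 1.03 (adjusted p = 0.0169), and against the ML8 pair alone 1.09 (adjusted p = 0.0302). Against the ML1 pair alone it was 0.58 (adjusted p = 0.364), and without an ML8 array 0.74 or 0.77, none of them called. The ML1 minus ML8 difference of YER134C itself, 0.51, was not called, and a link to YER137C was not tested. Set directly against npt1Δ, the deletions differed by -0.07 in YER134C and by -0.06 in YER137C, so npt1Δ read near their level.

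**Figure D5:**
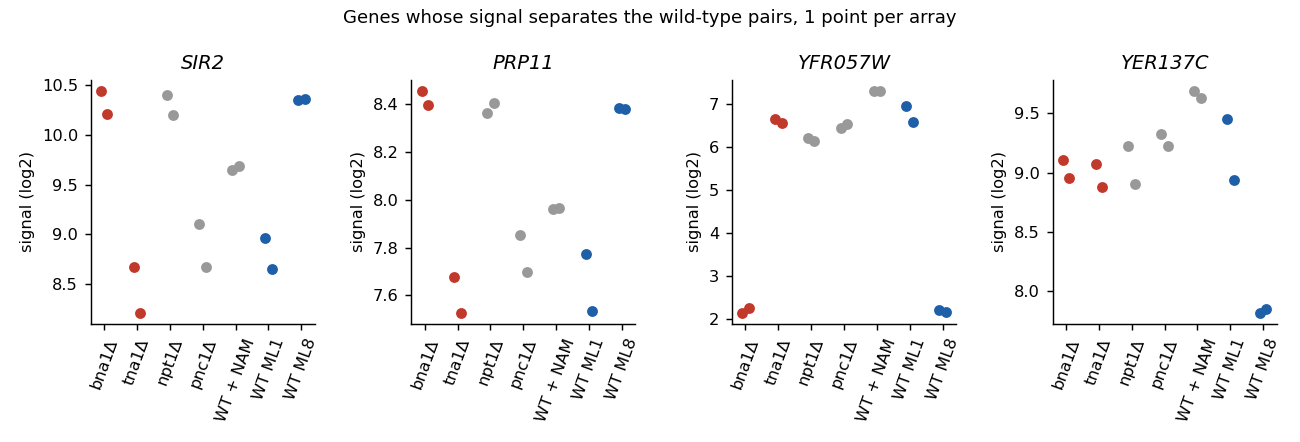
Signal (log2) of SIR2, PRP11, YFR057W and YER137C in all 14 arrays, 1 point per array, by group, with a separate scale for each gene. For SIR2, PRP11 and YFR057W the bna1Δ arrays lie with the ML8 pair and the tna1Δ arrays with the ML1 pair, and for YER137C the ML8 pair alone is low.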

How the data were processed

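The deposited table holds log2 signals of 10928 probe sets on 14 arrays, computed by the authors with GCRMA, which corrects background, normalizes between arrays and summarises each probe set, per the submitters' processing notes. Its release was not given in the sources used here, and nothing further was done to the values. Arrays have no depth, and precision is limited by their number.

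Probe sets were named through the platform annotation and the S. cerevisiae reference R64, which served for names and gene order only. Of them 5498 matched 1 gene each (5449 genes), and 128 of these are of a design shared by similar genes. A gene with several probe sets is given by the one of highest mean signal. The 1746 probe sets whose gene is not in the reference set the background limit, and a group wholly below it enters a fold change at the limit.

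All 14 arrays were fitted with limma 3.58.1 (lmFit, eBayes) in R 4.3.3, with the 4 wild-type arrays without nicotinamide as 1 group, leaving 8 residual degrees of freedom. The contrast was the mean of bna1Δ and tna1Δ minus wild type, and p-values were adjusted by Benjamini-Hochberg over the 5498 probe sets. Errors are SEs of the contrast. The scripted fit was tested on simulated data. For single named genes an exact permutation test over the 8 arrays cannot go below p = 0.0286, so the limma values are given.

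The comparison, its gene lists and the tests were chosen with earlier results of these data known. By rule the text names the deleted genes and their neighbours, shared calls, up to 4 called genes per list or strain difference, the highest signals of the sirtuin list, and the marker and mating genes. Other genes named, including the NAD+ genes that were not called, those of the iron, sulphur and respiratory lists, and PRP11, YFR057W, YER137C and YER134C, were chosen after their values were seen. The alternatives changed the wild-type arrays, the grouping, the normalization, the filter on dim probe sets and the variance model, or left out each array in turn.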

Additional observations from a re-analysis of the deposited data

Results flagged for a closer look

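In 7 of 60 named genes 1 of the 4 wild-type arrays lay far from the rest, and chance alone marks about 1 in 20 groups. ML1 array A was that array for NPT1 (12.54, the others 12.34 to 12.36), NRT1 (7.86, the others 8.09 to 8.10), RIP1 (9.17, the others 9.89 to 9.95), FBP1 (3.64, the others 4.20 to 4.28) and SMK1 (5.75, the others 5.34 to 5.40), in log2 signal. ML8 array B was the low one for BNA5 (10.23, the others 10.46 to 10.47) and ML8 array A for SPR3 (2.57, the others 2.82 to 2.87).

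A test of the difference between the strains separated bna1Δ from tna1Δ in 5 genes. The deleted genes gave a fitted bna1Δ minus tna1Δ difference of -7.69 for BNA1 (adjusted p = 1.95e-09 in limma) and of 10.45 for TNA1 (adjusted p = 2.51e-12). As bna1Δ lay below background for BNA1, the measured statement is at least 165-fold lower. With ML1 and ML8 fitted separately the difference was 1.89 for SIR2, 0.82 for its neighbour PRP11 (adjusted p = 0.00711) and, as fitted, -4.39 for YFR057W (adjusted p = 2.1e-08). For YFR057W bna1Δ lay below background too, at least 20.2-fold lower than tna1Δ.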

How the results depend on the processing

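Against only the ML8 pair, the pooled comparison gave 3 calls higher and 4 lower, of which 5 were other than the deleted genes (YER137C, FIT1, YER134C, YFR057W and ARN2) and 4 were also free of overlap. Against only the ML1 pair 1 other gene was called, YFR057W. With the pairs as separate groups, after quantile normalization and with a variance trend, 1 other gene was called without overlap each time, ARN2. A fit that ignored strain called 0 lower, since BNA1 and TNA1 then carry the strain difference as spread. Each strain alone gave 1 call lower, without overlap, its own gene. Leaving out each array in turn gave 0 to 1 calls higher, 2 to 2 lower, 0 to 1 other than the deleted genes and 0 to 1 without overlap. The single gained call was YER134C without ML1 array B. The strain difference had 5 calls with the pairs separate and 2 to 5 with an array left out, 5 without tna1Δ array A and 3 without array B. The added genes were SIR2, PRP11 and YFR057W with the pairs separate, SEO1, CRC1 and SPO21 without array A, and YBL008W-A without array B. The sign turned for YFR057W against ML8 (2.22, called there) and for TNA1, called in the pooled comparison, in bna1Δ alone (0.14). Of values not called, those over 0.1 on both sides of 0 were SIR2 against ML1 (0.58) and in bna1Δ alone (0.75), YER137C against ML1 (-0.19) and STR3 in tna1Δ alone (0.44). With the replicate letter as a replicate block the calls stayed at 2. The A minus B differences of 6 pairs of groups correlated at -0.21 (ML1 with ML8) to 0.53 (bna1Δ with tna1Δ), over 0.1 in 4. All 3 pairs without ML1 lay at 0.39 to 0.53. The main fit did not pair samples by letter, so a difference shared by the arrays of a letter would stay in its error. Of 1378 values of 60 named genes under 23 alternatives, 9 gained a call and 3 lost it with the sign kept. Another 2 changed both call and sign (YFR057W against ML8 and TNA1 in bna1Δ alone), and the rest kept their side of the threshold. In all, 94 values, of 33 genes, lay on the other side of 0. Medians of lists were recomputed as an alternative chosen after seeing the data. Beyond the wild-type arrays chosen, the cause of these changes was not tested.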

Other observations

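Aromatic amino acid genes, which supply or compete for the tryptophan that de novo synthesis uses, gave 0 calls of 17 and a median of 0.01. ARO9, which encodes an aromatic aminotransferase, had the largest estimate of that list. It read 7.02 and 7.29 in bna1Δ and 6.90 and 7.20 in tna1Δ, against 6.61 and 6.93 in the ML1 pair and 6.19 and 6.43 in the ML8 pair. Array A of tna1Δ overlapped ML1 array B, and the difference of 0.56 ± 0.16 did not pass the test. ARO9 was called against pnc1Δ, at 1.24 (adjusted p = 0.00861 in limma), where it read 5.65 and 6.07.

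Direct comparison of the deletions with pnc1Δ, which uses no wild-type array, gave 92 probe sets higher (1.67%) and 67 lower (1.22%) in the deletions. Respiratory chain genes were higher in 10 of 35, with COX5B, a hypoxic subunit of cytochrome oxidase, at 1.44. Stress and reserve carbohydrate genes were higher in 7 of 36, with the hexokinase gene HXK1 at 1.91 and YGP1, a cell wall glycoprotein gene, at 2.60. Genes of general amino acid control were lower in 10 of 36, with the lysine synthesis gene LYS1 at -0.31. Of the de novo genes, BNA5 (0.73) and BNA6 (0.38) were called higher in the deletions.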
